A study of Mus musculus with 9 samples.

Results

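The genes described here encode 44 enzymes of amino acid breakdown and of the methionine cycle. They were chosen by symbol, as a list, and all 44 were found among the 55335 genes of the liver table. Of these 44, 43 had a mean of at least 1 FPKM (fragments per kilobase of transcript per 1000000 mapped fragments) over all mice and were tested among 6755 such genes. Mccc1 fell below that level. The livers came from 9 male B6D2F2 mice kept on chow and taken at 20 weeks of age after 4 h of fasting. The NC-chow group was conceived naturally (mice 1, 5 and 6). The IVF-chow group came from fresh 2-cell embryos made by in vitro fertilization (mice 2, 3 and 4), and the FET-chow group came from such embryos after slow freezing and thawing (mice 2, 3 and 4). Both kinds of embryo had B6D2F1/J parents and were transferred to pseudopregnant ICR females, so in vitro fertilization, culture, transfer and the ICR uterus go together in these groups. The labels do not say which mice were littermates, so the p-values measure the spread between these mice only.

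The liver is the main site at which most amino acids are broken down. Tyrosine, tryptophan, lysine and histidine are degraded by enzymes that hepatocytes make in large amounts, and the carbon enters glucose, ketone or fat synthesis while the nitrogen goes to urea. Several of these genes, among them Tat, Tdo2, Sds and Oat, are known to respond to glucocorticoids, glucagon, protein intake and fasting. In the methionine cycle, methionine is turned into S-adenosylmethionine, the methyl donor of the cell, and then into homocysteine, which is either methylated back to methionine with betaine or passed on to cysteine.

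The libraries differed in ways that touch every value below. The estimated depth, in units of 1000000 fragments, was 6.53 to 13.1 in NC-chow, 3.83 to 8.29 in IVF-chow and 1.99 to 2.89 in FET-chow livers, so all 3 FET-chow libraries were shallower than all others. Entries that look like ribosomal RNA held between 3.49% (NC-chow mouse 5) and 61.9% (IVF-chow mouse 2) of the summed FPKM. Nuclear protein-coding genes held between 4.36% (IVF-chow mouse 2) and 29.3% (IVF-chow mouse 4). Mitochondrial genes held 40.2% to 55.3% in NC-chow, 27.6% to 41.5% in IVF-chow and 28.6% to 41.4% in FET-chow livers. An FPKM value of any enzyme is diluted by the ribosomal and mitochondrial entries, and the counts over the list and the main members are therefore also given in parts in 1000000 (ppm) of the FPKM of nuclear protein-coding genes. The sheet number that closes each library label lies far higher for NC-chow mice 5 and 6 than for the remaining 7 livers, which were numbered close together. The libraries of mice 5 and 6 were also the deepest, at 11.8 and 13.1. They held the least FPKM on ribosomal RNA-like entries (3.49% and 5.03%) and the most on mitochondrial genes (55.3% and 51.9%). NC-chow mouse 1, with a depth of 6.53 and shares of 26.5% and 40.2%, lay within the ranges of the IVF-chow and FET-chow livers. All 10 hepatocyte markers, such as Alb and Apoa1, were above 0 in every liver, and summed lymphocyte and pancreatic acinar markers were at most 1.71 and 1.26 FPKM. In whole tissue, fewer cells of a type and less RNA per cell cannot be told apart.

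The 44 enzymes spanned a wide range of levels. By their mean FPKM over the 9 livers, 7 were at 100 or above, 21 between 10 and 100, 15 between 1 and 10, and 1 below 1. The methionine and cysteine genes held 43.2% of the summed mean FPKM of the list, and the tyrosine genes held 27.7%. Hpd, which makes homogentisate in the tyrosine pathway, had the highest mean at 341 FPKM, followed by Bhmt at 234, Cdo1 at 218, Mat1a at 173 and Ahcy at 157. The 8 highest genes, which also take in Fah, Oat and Tat, held 69.6% of the total. At the other end, Gldc had a mean of 1.32 FPKM, Hibch of 1.44 and Mccc1 of 0.516.

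**Figure D1:**
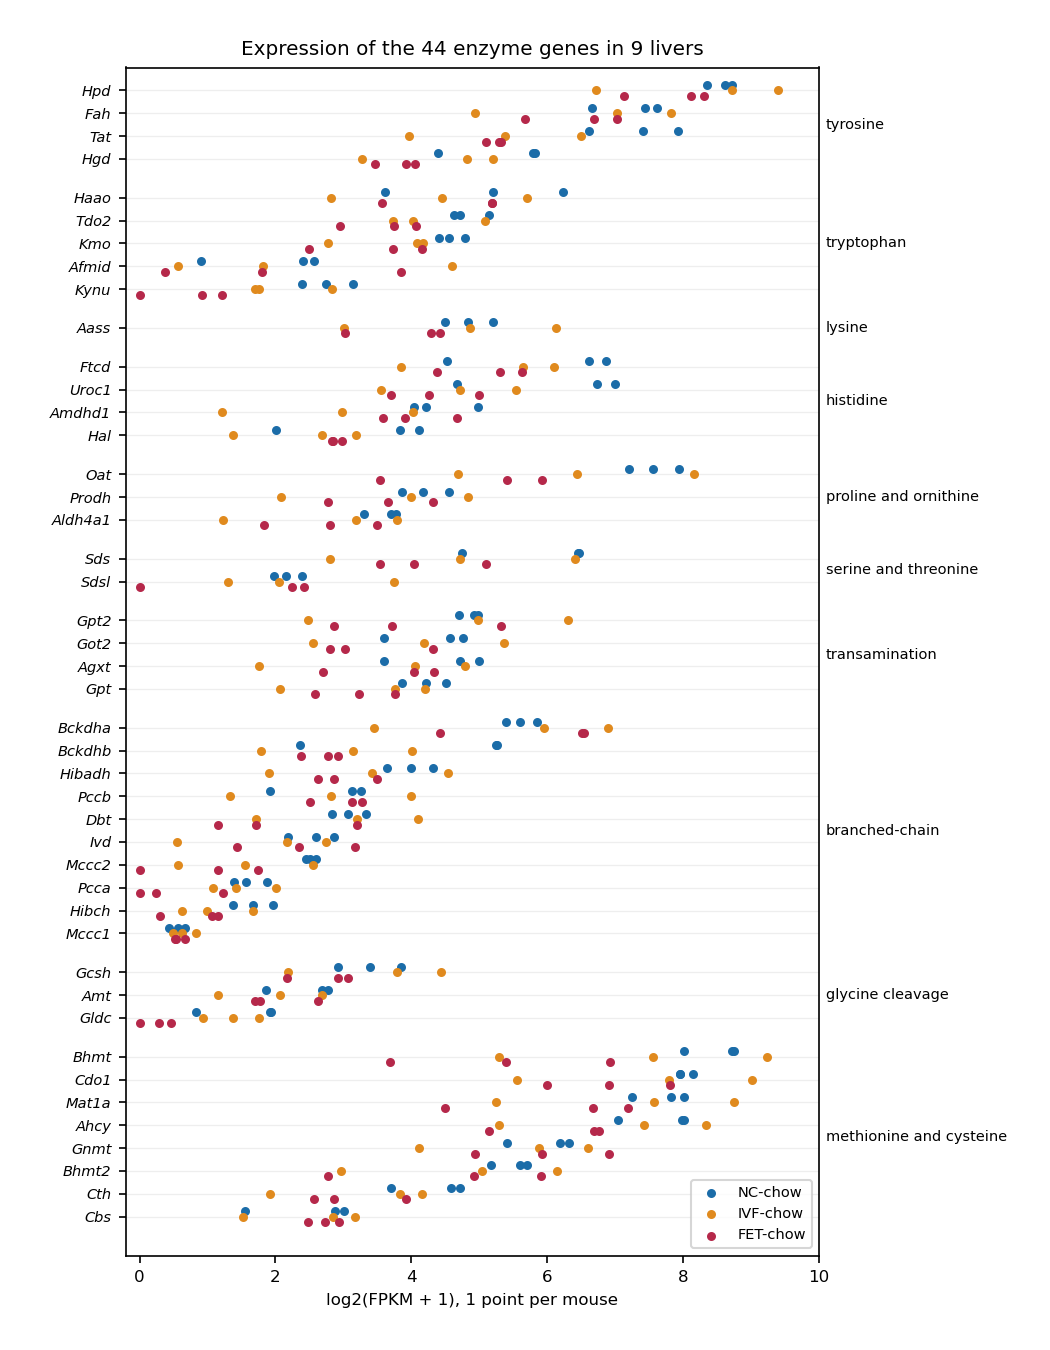
log2(FPKM + 1) of each enzyme gene (x axis, 1 point per mouse) by pathway (right) and conception group (colour). Hpd and Bhmt lie at the right with means of 341 and 234 FPKM, Mccc1 lies near 0.516 FPKM, and the leftmost FET-chow points of Kynu, Mccc2, Gldc, Sdsl and Pcca are listed at 0.

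Single livers set much of the spread in FPKM. IVF-chow mouse 2 had the lowest value of all 9 mice for 27 of the 44 genes and FET-chow mouse 4 for 13, while IVF-chow mouse 4 had the highest for 21. The summed FPKM of the 44 genes was 1982, 3092 and 3239 in NC-chow, 485 to 4140 in IVF-chow and 1724, 1381 and 661 in FET-chow livers. As a share of coding FPKM, the list held 2.11%, 2.24% and 2.07% in NC-chow, 1.24%, 1.91% and 1.80% in IVF-chow and 1.89%, 1.07% and 1.46% in FET-chow livers. Every NC-chow liver was thus above every IVF-chow and FET-chow liver in that share, which a few abundant genes dominate. On this scale 21 of the 44 genes peaked in an NC-chow, 10 in an IVF-chow and 13 in a FET-chow liver, and 28 had their lowest value in a FET-chow liver. The median coefficient of variation across mice was 0.634 in FPKM and 0.448 in ppm. Hpd and Fah, which stand in the middle and at the end of tyrosine breakdown, varied least in ppm, with a coefficient of 0.144 each.

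**Figure D2:**
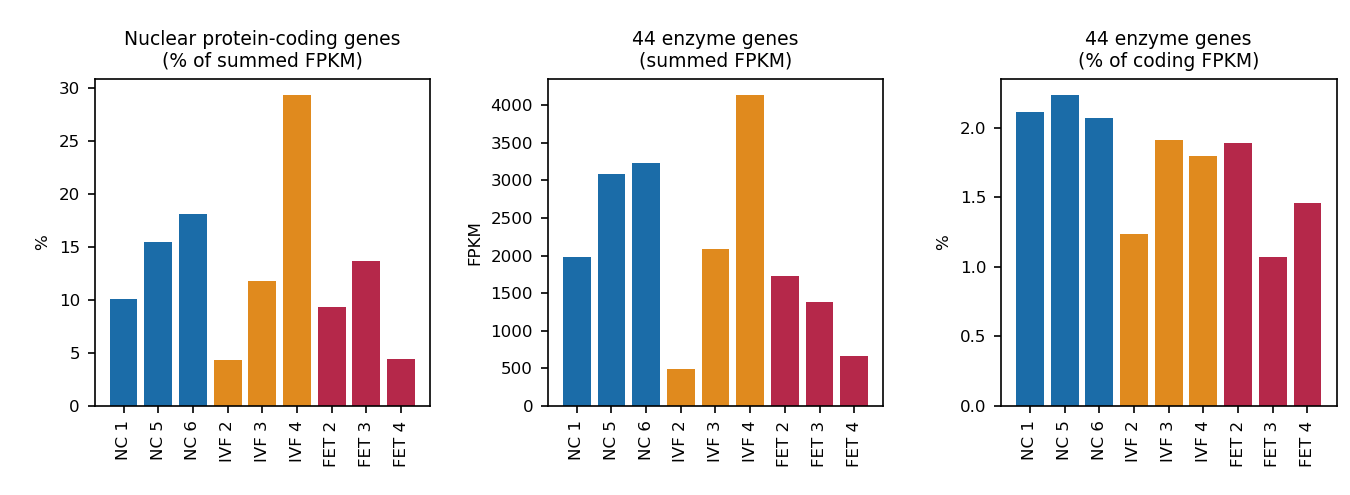
Bars give, for each mouse, the share of summed FPKM on nuclear protein-coding genes (left, %), the summed FPKM of the 44 enzyme genes (middle) and their share of coding FPKM (right, %). The right panel shows NC-chow livers at 2.07% to 2.24%, above the highest other liver at 1.91%.

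FET-chow livers were compared with NC-chow livers to see how the frozen-thawed conception route differed from natural conception. Most of the enzymes had a lower mean in FET-chow livers, but 0 of the 43 tested passed an adjusted p of 0.05 (limma, Benjamini-Hochberg over 6755 genes), where 16 genes or 0.237% of the table did. At an unadjusted p under 0.05, 5 members were lower (Kynu, Bhmt, Mccc2, Oat and Gldc) and 0 were higher. This is 11.6% of the 43, beside 10.1% of all genes tested that were lower by the same rule and 1.88% that were higher. The log2 fold change was negative for 39 of 43 members, beside 74.4% of all genes. Its median was -0.93 over the members and -0.46 over all genes on the log2(FPKM + 1) scale, which understates changes of low genes. With a pseudocount of 0.1 the medians were closer together, at -1.08 and -0.77. They were -0.45 and -0.18 once each library was rescaled to its coding FPKM. In that rescaled fit 33 of 43 members were negative, beside 56.8% of all genes, and 8 were lower at an unadjusted p under 0.05, beside 9.15% of all genes. In FPKM, all 3 FET-chow livers lay below all 3 NC-chow livers for 18 members, 41.9% of the 43 beside 17.1% of all genes. In ppm this held for 10 members, or 23.3%, beside 11.5% of all genes, and 2 members (Bckdha and Cbs) were above without overlap, beside 9.99% of all genes.

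Tat, which starts tyrosine breakdown by removing its amino group, was at 96.95, 243 and 168 FPKM in NC-chow, 14.6, 40.8 and 89.7 FPKM in IVF-chow and 33.1, 38.1 and 38.9 FPKM in FET-chow livers. All FET-chow values lay below all NC-chow values, and the IVF-chow values lay below the lowest NC-chow value as well. In ppm, Tat was at 1034, 1759 and 1074 in NC-chow, 372, 373 and 389 in IVF-chow and 362, 295 and 857 in FET-chow livers, so neither embryo group overlapped NC-chow on either scale. The later tyrosine genes differed less. Hpd was at 324, 393 and 419 FPKM in NC-chow, 105, 421 and 674 FPKM in IVF-chow and 277, 317 and 139 FPKM in FET-chow livers. Hgd, which opens the ring of homogentisate, was at 20.1, 55.6 and 54.2 FPKM in NC-chow, 8.64, 27.2 and 35.6 FPKM in IVF-chow and 9.998, 15.6 and 14.2 FPKM in FET-chow livers. For both, FET-chow lay below NC-chow in FPKM, but in ppm the groups overlapped, with Hpd at 3458, 2846 and 2673 in NC-chow and 3031, 2453 and 3061 in FET-chow livers. The groups overlapped on both scales for Fah.

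Of the 5 tryptophan genes, Kynu had the smallest p of the whole list. Kynu encodes kynureninase, which releases alanine from kynurenine and 3-hydroxykynurenine. It was at 4.27, 5.69 and 7.78 FPKM in NC-chow, 2.39, 2.24 and 6.15 FPKM in IVF-chow and 0, 0.885 and 1.32 FPKM in FET-chow livers. The FET-chow values were below every value of both other groups. The log2 fold change of FET-chow against NC-chow was -2.05 with an SE of 0.64, and the adjusted p was 0.148 (limma). The 0 in FET-chow mouse 2 stands on the shallowest library of all, in which 3 fragments would have given 0.543 to 0.950 FPKM depending on the transcript. In ppm, Kynu was at 45.5, 41.2 and 49.7 in NC-chow and 0, 6.85 and 29.1 in FET-chow livers, again without overlap between these groups. With IVF-chow at 61.1, 20.5 and 26.7 ppm, FET-chow and IVF-chow overlapped on that scale. Tdo2, which opens the indole ring of tryptophan as the first step, was at 34.2, 25.4 and 23.7 FPKM in NC-chow, 12.2, 15.3 and 32.9 FPKM in IVF-chow and 12.5, 15.8 and 6.69 FPKM in FET-chow livers. Kmo, the hydroxylase just before Kynu, was at 20.2, 22.6 and 26.8 FPKM in NC-chow, 5.87, 15.9 and 16.96 FPKM in IVF-chow and 12.3, 16.8 and 4.63 FPKM in FET-chow livers. FET-chow lay below NC-chow for both genes in FPKM and in ppm, where the gaps were narrow (Tdo2 at most 147 against at least 151 ppm, Kmo at most 135 against at least 163 ppm). Haao, which makes the precursor of quinolinate and was the most abundant gene of this arm, was at 11.2, 74.3 and 35.7 FPKM in NC-chow, 6.02, 51.1 and 20.9 FPKM in IVF-chow and 35.4, 35.3 and 10.8 FPKM in FET-chow livers and overlapped in all groups. Afmid is taken up with the genes that share exons.

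Among the genes of proline and ornithine, Oat stood apart. Oat moves an amino group from ornithine to 2-oxoglutarate. It was at 188, 146 and 243 FPKM in NC-chow, 24.9, 85.5 and 284 FPKM in IVF-chow and 59.6, 41.3 and 10.6 FPKM in FET-chow livers. FET-chow lay below NC-chow without overlap, whereas the IVF-chow values spanned both. The log2 fold change against NC-chow was -2.61 with an SE of 1.10, with an adjusted p of 0.334 (limma). In ppm, Oat was at 2005, 1057 and 1554 in NC-chow and 652, 319 and 233 in FET-chow livers, and the rescaled fit gave an adjusted p of 0.11 (limma), the smallest of the list in that fit. Prodh and Aldh4a1, which degrade proline, overlapped between FET-chow and NC-chow on both scales. In the lysine arm, Aass, which carries out the opening steps of lysine breakdown, was at 35.99, 21.5 and 27.4 FPKM in NC-chow, 7.03, 27.98 and 69.2 FPKM in IVF-chow and 20.5, 18.5 and 7.13 FPKM in FET-chow livers. It was below NC-chow without overlap in FPKM only.

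The branched-chain genes were not alike. Mccc2, which encodes the non-biotin subunit of the carboxylase that degrades leucine, was at 4.703, 4.47 and 5.08 FPKM in NC-chow, 0.486, 1.95 and 4.85 FPKM in IVF-chow and 0, 2.36 and 1.22 FPKM in FET-chow livers. The NC-chow values lay close together and above all FET-chow values, of which the 0 stands beside a floor of 0.710 to 1.32 FPKM for 3 fragments in that library. Its log2 fold change was -1.56 with an SE of 0.64, with an adjusted p of 0.322 (limma). Mccc1, which encodes the partner subunit, was at 0.353 to 0.779 FPKM in all livers and was not tested. Hibch and Hibadh act one after the other in valine breakdown. Hibch was at 1.59, 2.196 and 2.88 FPKM in NC-chow, 0.541, 0.999 and 2.19 FPKM in IVF-chow and 1.23, 1.09 and 0.228 FPKM in FET-chow livers, and Hibadh was at 11.4, 14.9 and 18.9 FPKM in NC-chow, 2.76, 9.75 and 22.4 FPKM in IVF-chow and 6.27, 10.3 and 5.19 FPKM in FET-chow livers. FET-chow lay below NC-chow for both in FPKM, and for Hibch in ppm too. Pcca, the biotin-carrying subunit of propionyl-CoA carboxylase, was at 1.63, 1.97 and 2.69 FPKM in NC-chow, 1.12, 1.66 and 3.04 FPKM in IVF-chow and 1.34, 0.187 and 0 FPKM in FET-chow livers. The 0 of FET-chow mouse 4 stands beside a floor of 0.4005 to 2.41 FPKM for 3 fragments. Its partner Pccb had overlapping groups. Pcca shares 241 exon bases with Ggact on the opposite strand, at a mean of 3.99 FPKM, and the strandedness of the libraries is not given in the sources used here.

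Bckdha and Bckdhb encode the 2 kinds of chain in the first component of the branched-chain keto acid dehydrogenase. Bckdha, the most abundant branched-chain gene, was at 41.1, 47.3 and 56.8 FPKM in NC-chow, 9.96, 60.7 and 119 FPKM in IVF-chow and 90.4, 92.1 and 20.5 FPKM in FET-chow livers. In ppm it was at 439, 343 and 363 in NC-chow and 989, 713 and 451 in FET-chow livers, with FET-chow above NC-chow. Bckdhb was at 4.13, 37.3 and 36.99 FPKM in NC-chow, 2.45, 7.87 and 15.1 FPKM in IVF-chow and 5.86, 4.17 and 6.58 FPKM in FET-chow livers. NC-chow mouse 1 thus resembled the embryo groups for Bckdhb, and NC-chow mice 5 and 6 stood above all other livers. Dbt, which encodes the core of the same complex, and Ivd, which acts on the leucine branch, overlapped.

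The glycine cleavage system has a decarboxylase (Gldc), an aminomethyltransferase (Amt) and a lipoyl carrier protein (Gcsh). Gldc was at 0.771, 2.79 and 2.81 FPKM in NC-chow, 0.916, 1.603 and 2.39 FPKM in IVF-chow and 0, 0.377 and 0.222 FPKM in FET-chow livers. All 3 FET-chow values lay below all other values, but close to the limit of detection, since 3 fragments would have given 0.400 FPKM in FET-chow mouse 2. The log2 fold change against NC-chow was -1.31 with an SE of 0.58, with an adjusted p of 0.352 (limma), and it was -0.57 when NC-chow mouse 1 was the only control. Amt overlapped between groups. Gcsh was at 6.604, 9.53 and 13.5 FPKM in NC-chow, 3.55, 12.8 and 20.6 FPKM in IVF-chow and 7.37, 6.58 and 3.500 FPKM in FET-chow livers. In ppm, Gcsh was at 70.4, 69.00 and 86.01 in NC-chow, 90.5, 117.4 and 89.4 in IVF-chow and 80.7, 50.9 and 77.1 in FET-chow livers, so IVF-chow was above both other groups without overlap.

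In the methionine cycle, Bhmt had the largest fold change of the list on the log2(FPKM + 1) scale, whereas Kynu, a gene of low level, was ahead with rescaling to coding genes (-2.91 against -2.56) and with a pseudocount of 0.1 (-3.49 against -3.20). Bhmt methylates homocysteine with betaine. It was at 257, 420.4 and 427 FPKM in NC-chow, 38.3, 187 and 600.4 FPKM in IVF-chow and 119.9, 40.9 and 11.9 FPKM in FET-chow livers. The FET-chow values lay below all NC-chow values, and the IVF-chow values ranged across both. The log2 fold change of FET-chow against NC-chow was -3.16 with an SE of 1.14, with an adjusted p of 0.251 (limma). In ppm, Bhmt was at 2739, 3043 and 2728 in NC-chow, 977, 1712 and 2607 in IVF-chow and 1312, 317 and 262 in FET-chow livers, and the rescaled fit gave a log2 fold change of -2.56 and an adjusted p of 0.124 (limma). Mat1a, which makes S-adenosylmethionine, was at 152, 257 and 224 FPKM in NC-chow, 36.9, 189 and 428 FPKM in IVF-chow and 146, 101 and 21.5 FPKM in FET-chow livers. Ahcy, which splits S-adenosylhomocysteine, was at 131, 251 and 256 FPKM in NC-chow, 38.2, 171 and 323 FPKM in IVF-chow and 108, 102 and 34.2 FPKM in FET-chow livers. FET-chow lay below NC-chow for both in FPKM, and for Ahcy in ppm too, with 1181, 792 and 753 ppm against 1400.2, 1816 and 1638. Gnmt, which consumes S-adenosylmethionine to methylate glycine, was at 41.3, 71.7 and 79.3 FPKM in NC-chow, 16.4, 95.95 and 57.6 FPKM in IVF-chow and 119, 59.9 and 29.6 FPKM in FET-chow livers and overlapped.

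On the branch from homocysteine to cysteine and taurine, the genes did not share a direction. Cbs, which opens the branch, was at 1.92, 6.32 and 7.05 FPKM in NC-chow, 1.87, 8.01 and 6.201 FPKM in IVF-chow and 4.57, 6.63 and 5.61 FPKM in FET-chow livers. In ppm its FET-chow values (50.1, 51.3 and 124) were above its NC-chow values (20.5, 45.7 and 45.03). Cth, which releases cysteine, was at 11.9, 25.4 and 23.1 FPKM in NC-chow, 2.79, 13.3 and 16.9 FPKM in IVF-chow and 14.1, 6.25 and 4.93 FPKM in FET-chow livers and overlapped between FET-chow and NC-chow. Cdo1, which oxidises cysteine, was at 246, 248 and 281 FPKM in NC-chow, 46.1, 221 and 515 FPKM in IVF-chow and 223, 63.1 and 119 FPKM in FET-chow livers. It was lower in FET-chow without overlap in FPKM, but in ppm it was at 2445, 488 and 2629 in FET-chow against 2619.9, 1795 and 1795 in NC-chow livers, which overlapped.

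**Figure D3:**
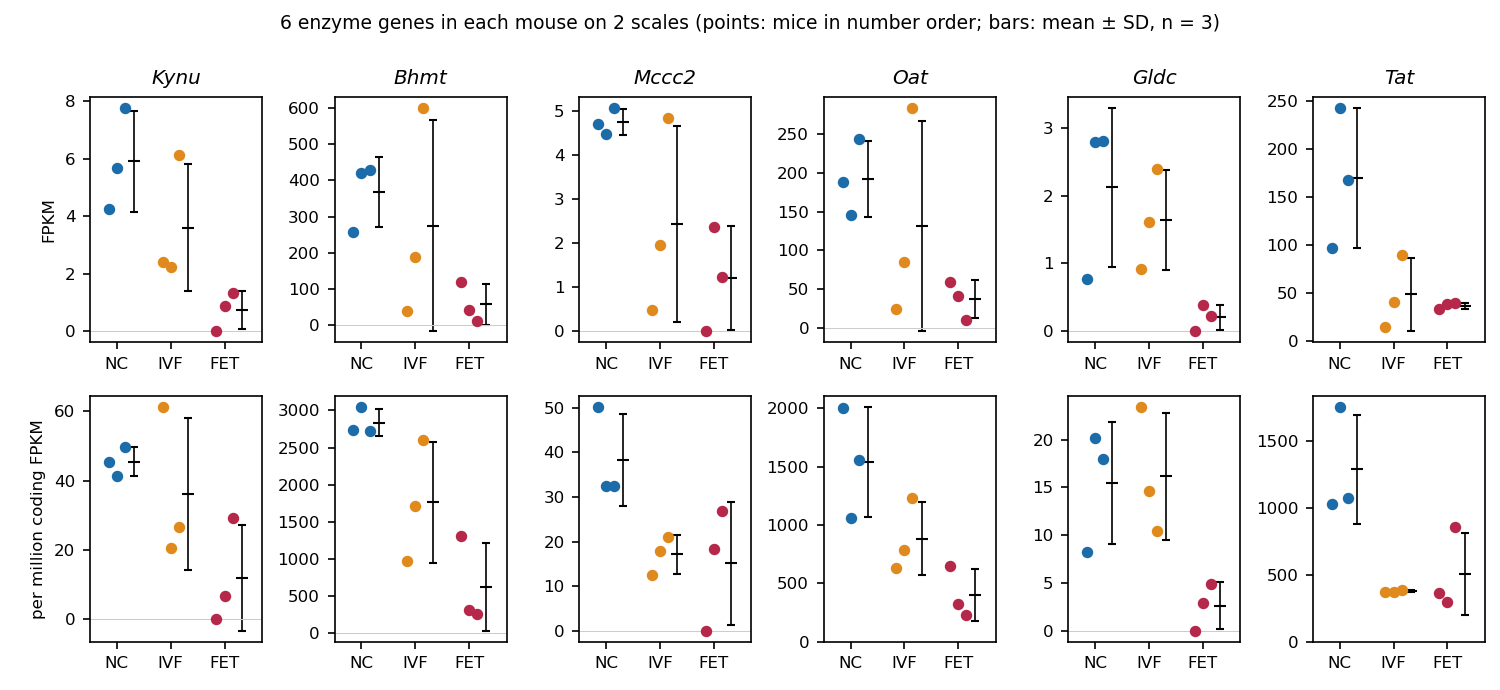
Kynu, Bhmt, Mccc2, Oat, Gldc and Tat in each mouse, in FPKM (top) and in ppm of coding FPKM (bottom), with points in order of mouse number and bars for the mean ± SD (n = 3). FET-chow points lie below NC-chow points in every panel, for example Bhmt at 11.9 to 119.9 FPKM against 257 to 427 FPKM.

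The remaining arms gave no member at an unadjusted p under 0.05 in FET-chow against NC-chow in FPKM, and Uroc1 was lower by that rule in the rescaled fit. In the histidine arm, which leads from histidine to glutamate and the folate pool, Ftcd was the most abundant gene at 21.9, 97.01 and 115 FPKM in NC-chow, 13.4, 49.02 and 67.8 FPKM in IVF-chow and 38.7, 48.5 and 19.9 FPKM in FET-chow livers, and 0 of 4 genes were without overlap. Sds, which deaminates serine and threonine to keto acids, was at 25.7, 86.5 and 87.1 FPKM in NC-chow, 5.97, 25.4 and 83.6 FPKM in IVF-chow and 33.4, 10.7 and 15.5 FPKM in FET-chow livers. Sdsl, a related gene, was at 4.25, 3.44 and 2.93 FPKM in NC-chow, 1.46, 3.15 and 12.4 FPKM in IVF-chow and 4.37, 3.72 and 0 FPKM in FET-chow livers, and the 0 stands beside a floor of 0.703 to 2.37 FPKM for 3 fragments in that library. Among the transaminases, Gpt2, the mitochondrial alanine aminotransferase, was at 25.04, 29.4 and 30.5 FPKM in NC-chow, 4.56, 30.7 and 77.9 FPKM in IVF-chow and 38.8, 12.1 and 6.25 FPKM in FET-chow livers. Gpt, the cytosolic form, was at 13.6, 17.6 and 21.9 FPKM in NC-chow, 3.202, 12.5 and 17.5 FPKM in IVF-chow and 12.5, 8.404 and 4.96 FPKM in FET-chow livers. FET-chow lay below NC-chow for Gpt in FPKM, with 12.5 as the highest FET-chow and 13.6 as the lowest NC-chow value, and the groups overlapped in ppm. Agxt and Got2, which act on glyoxylate and aspartate, overlapped on both scales.

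Promoters are shown for 4 of the 10 members that were lower in FET-chow without overlap on both scales. Mccc2, Oat and Gldc had an unadjusted p under 0.05, and Tat was the next by p. Each is the 250 bases before the start that RefSeq annotates on GRCm38.p6, written 5′ to 3′ on the strand of the gene. Capitals mark matches, on either strand, to CCAAT (the CCAAT box) or GGGCGG (the Sp1 motif). The other motifs searched had no match in these windows, namely TATAAA (the TATA box), AGAACA (the core of a glucocorticoid response element), TGTTTAC (a forkhead motif) and CAAAGTCCA (an Hnf4a motif). Kynu has no entry. The window of Bhmt overlaps an exon annotated by GENCODE and is not printed.
Mccc2 (chr13:100015640-100015889, minus strand): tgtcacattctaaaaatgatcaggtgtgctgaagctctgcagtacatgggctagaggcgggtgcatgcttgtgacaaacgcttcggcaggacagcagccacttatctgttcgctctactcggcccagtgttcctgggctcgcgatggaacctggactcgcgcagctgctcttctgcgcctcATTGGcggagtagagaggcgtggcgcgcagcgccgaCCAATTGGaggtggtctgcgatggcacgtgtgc
Oat (chr7:132576399-132576648, minus strand): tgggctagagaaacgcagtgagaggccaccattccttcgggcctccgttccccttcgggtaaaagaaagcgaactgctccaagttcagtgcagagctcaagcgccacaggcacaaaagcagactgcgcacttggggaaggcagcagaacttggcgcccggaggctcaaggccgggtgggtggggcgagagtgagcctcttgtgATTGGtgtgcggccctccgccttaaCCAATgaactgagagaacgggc
Gldc (chr19:30175442-30175691, minus strand): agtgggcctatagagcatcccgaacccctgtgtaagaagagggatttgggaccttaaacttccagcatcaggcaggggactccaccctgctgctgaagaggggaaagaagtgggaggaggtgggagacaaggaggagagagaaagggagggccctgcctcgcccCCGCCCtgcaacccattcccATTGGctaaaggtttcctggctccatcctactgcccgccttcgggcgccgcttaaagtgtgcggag
Tat (chr8:109990186-109990435, plus strand): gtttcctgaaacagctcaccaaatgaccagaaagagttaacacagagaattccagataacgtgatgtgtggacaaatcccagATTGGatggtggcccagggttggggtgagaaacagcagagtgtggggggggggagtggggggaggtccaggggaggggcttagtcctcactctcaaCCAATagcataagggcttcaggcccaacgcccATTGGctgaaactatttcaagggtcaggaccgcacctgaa
All 4 windows hold CCAAT on one strand or the other, 3 times in Mccc2 (where a pair of matches overlaps) and Tat, 2 times in Oat and 1 time in Gldc, which also holds GGGCGG. Of the 10 members, 9 had an entry and 7 of these held CCAAT, counting the window of Bhmt that is not printed. Over the list, 21 of the 36 genes with a full entry had CCAAT, or 57.9% of their 38 promoters, beside 33.8% of 32851 promoters of the same length. GGGCGG stood in 42.1% of the promoters of the list and 32.7% of all, TATAAA in 13.2% and 12.4%, AGAACA in 10.5% and 16.1%, TGTTTAC in 2.63% and 3.17%, and CAAAGTCCA in 0% and 0.384%. These are matches of letters, not of bound factors.

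IVF-chow livers were compared with NC-chow livers to see how in vitro conception without freezing differed. Of the 43 members, 0 passed an adjusted p of 0.05 (limma), beside 0.0592% of all genes, and 0 had an unadjusted p under 0.05, beside 2.86% of all genes that were lower by that rule. The fold change was negative for 39 of 43, beside 68.9% of all genes. Its median was -0.66 over the members and -0.25 over all genes, and -0.73 and -0.42 with a pseudocount of 0.1. In FPKM the members' median was 0.0025 without IVF-chow mouse 2, beside 0.22 over all genes, and -1.16 without IVF-chow mouse 4, beside -0.63. After rescaling to coding genes it was -0.39 over the members and -0.11 over all genes, and without IVF-chow mouse 2 it was then -0.33. On that scale 30 of 43 members were negative with or without that mouse, beside 56.3% of all genes with it, and 3 were lower at an unadjusted p under 0.05, beside 2.9% of all genes. In FPKM, 3 members were lower without overlap (Tat, Kmo and Amdhd1), or 6.98% beside 5.46% of all genes. In ppm, 11 were lower (Tat, Kmo, Amdhd1, Aldh4a1, Gpt, Mccc2, Hibadh, Hibch, Bhmt, Bhmt2 and Cth), or 25.6% beside 11.3% of all genes, and Gcsh was higher, beside 4.87%. The FET-chow and IVF-chow comparisons share the NC-chow livers. With NC-chow mouse 1 as the only control, the median of IVF-chow was -0.07 over the members and 0.04 over all genes in FPKM. After rescaling to coding genes, these medians were -0.23 and -0.13.

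Tat, Kmo and Amdhd1 separated IVF-chow from NC-chow on both scales. Tat was at 372 to 389 ppm in all 3 IVF-chow livers, although their coding shares ran from 4.36% to 29.3%. Amdhd1, which opens the imidazolone ring in histidine breakdown, was at 15.5, 17.6 and 30.5 FPKM in NC-chow, 1.32, 6.89 and 15.2 FPKM in IVF-chow and 13.9, 24.5 and 10.9 FPKM in FET-chow livers. In ppm it was at 165, 127 and 195 in NC-chow, 33.7, 63.04 and 65.99 in IVF-chow and 153, 189.7 and 241 in FET-chow livers, so IVF-chow was below both other groups. Bhmt in IVF-chow was at 977, 1712 and 2607 ppm, each below the lowest NC-chow value of 2728 ppm, with mouse 4 close to it. Aldh4a1, the dehydrogenase that ends proline breakdown, was at 34.4, 73.8 and 55.9 ppm in IVF-chow against 94.2, 91.6 and 76.7 in NC-chow livers, and its FET-chow values of 113, 46.3 and 56.7 ppm overlapped both.

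**Figure D4:**
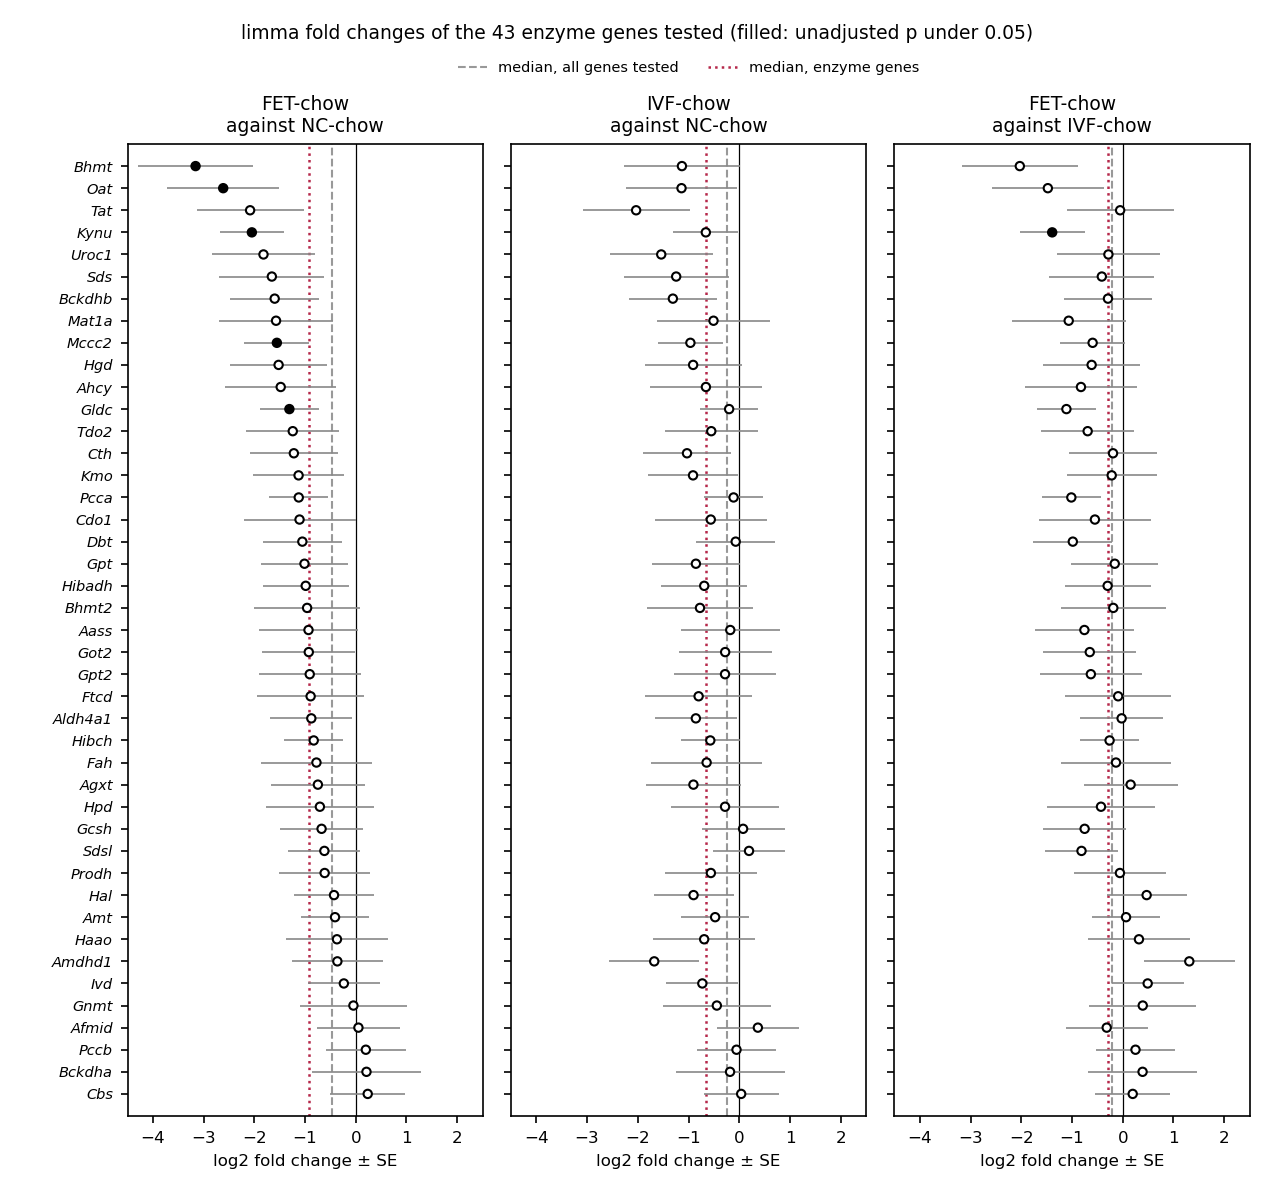
log2 fold change ± SE on the log2(FPKM + 1) scale (x axis) of each of the 43 genes tested, in the 3 comparisons, ordered by FET-chow against NC-chow. Filled points have an unadjusted p under 0.05, dotted lines give the members' medians (-0.93, -0.66 and -0.29) and dashed lines those of all 6755 genes (-0.46, -0.25 and -0.20).

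FET-chow against IVF-chow asks what freezing and thawing adds to in vitro conception. Here 0 of 43 members passed an adjusted p of 0.05 (limma), beside 0.0888% of all genes, and Kynu was the 1 member with an unadjusted p under 0.05 (2.33% of the 43, beside 2.95% of all genes that were lower). Its log2 fold change was -1.39 with an SE of 0.64, with an adjusted p of 1 (limma). The fold change was negative for 33 of 43, beside 65.4% of all genes. Its median was -0.29 over the members and -0.20 over all genes, and -0.29 and -0.32 with a pseudocount of 0.1. Leaving out IVF-chow mouse 2 gave a median of -0.97, beside -0.67 over all genes. Leaving out IVF-chow mouse 4 gave 0.23, beside 0.16 over all genes. The choice of 1 liver thus turned the direction in FPKM, for the members and over all genes alike. After rescaling to coding genes, 21 of 43 were negative, beside 51.7% of all genes, with a median of 0.0046, beside -0.05 over all genes, so the list had no common direction on that scale. The rescaled fit had 5 members lower and 1 higher at an unadjusted p under 0.05, beside 5.55% of all genes lower and 4.13% higher. In FPKM, Kynu and Gldc were lower without overlap, 4.65% beside 2.56% of all genes. In ppm, Gldc and Gcsh were lower, beside 6.01% of all genes, and Hal and Amdhd1 were higher, beside 6.72%. Gldc was at 0, 2.92 and 4.897 ppm in FET-chow and 23.4, 14.7 and 10.4 ppm in IVF-chow livers. Hal, which takes the amino group off histidine, was at 68.2, 53.5 and 134 ppm in FET-chow and 40.7, 49.6 and 35.3 ppm in IVF-chow livers, with NC-chow at 32.3, 95.8 and 104 ppm.

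Bhmt and its neighbour Bhmt2 differed in how they followed the groups. Bhmt2, which methylates homocysteine from S-methylmethionine, was at 35.02, 47.5 and 51.2 FPKM in NC-chow, 6.82, 32.002 and 69.8 FPKM in IVF-chow and 59.1, 29.2 and 5.83 FPKM in FET-chow livers. The genes lie side by side on the minus strand (Bhmt chr13:93616675-93637961 and Bhmt2 chr13:93655720-93674302, GRCm38 in GENCODE vM21). The ratio of Bhmt to Bhmt2 within a library, in which dilution by other entries cancels, was 7.34, 8.85 and 8.34 in NC-chow, 5.61, 5.85 and 8.60 in IVF-chow and 2.03, 1.40 and 2.04 in FET-chow livers. Each FET-chow ratio lay below each ratio of the other groups, NC-chow mouse 1 included. The geometric mean was 4.54-fold lower in FET-chow than in NC-chow, with an exact two-sided permutation p of 0.1, which is the smallest that 3 mice against 3 allow, and 0.15 after adjustment over the 3 comparisons. FET-chow was 3.65-fold lower than IVF-chow (exact permutation p of 0.1, adjusted 0.15), and IVF-chow was 1.24-fold lower than NC-chow (exact permutation p of 0.3, adjusted 0.3). This ratio was chosen after the values had been seen.

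**Figure D5:**
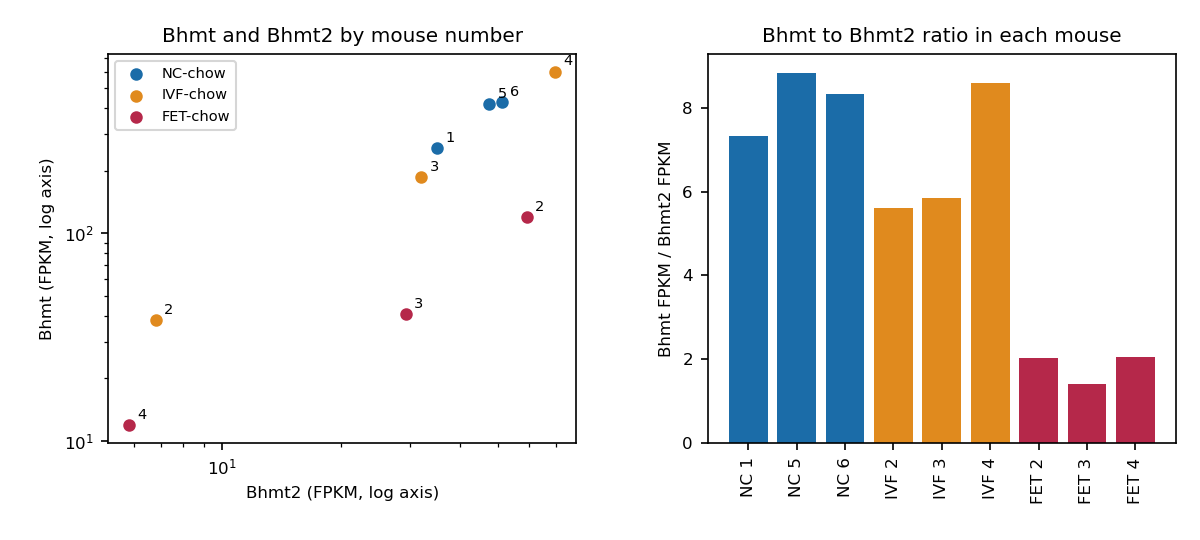
Left, Bhmt against Bhmt2 in FPKM on log axes, 1 point per mouse with its number. Right, the ratio of Bhmt to Bhmt2 in each mouse, at 7.34 to 8.85 in NC-chow, 5.61 to 8.60 in IVF-chow and 1.40 to 2.04 in FET-chow livers.

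The open reading frames of Bhmt and Bhmt2 are 75.3% identical over 1091 aligned bases, and the longest identical run is 59 bases. A fragment from such a run could belong to either gene. The 90 bases around the run are shown because they are where the deposited estimates of the pair could mix, with the 4 mismatches in capitals.
Bhmt (bases 850 to 939 of the reading frame): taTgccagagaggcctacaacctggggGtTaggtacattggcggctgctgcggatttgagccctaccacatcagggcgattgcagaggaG
Bhmt2 (bases 823 to 912 of the reading frame): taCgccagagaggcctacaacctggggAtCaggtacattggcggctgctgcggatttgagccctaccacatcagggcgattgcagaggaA
The other related pairs are less alike, at 68.2% for Gpt and Gpt2 and 66.5% for Sds and Sdsl, with longest identical runs of 20 and 13 bases.

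Afmid, the formamidase after Tdo2, had the widest spread of the list, with a coefficient of variation of 1.31 in FPKM. It was at 0.867, 4.92 and 4.28 FPKM in NC-chow, 0.475, 23.2 and 2.51 FPKM in IVF-chow and 2.48, 13.4 and 0.296 FPKM in FET-chow livers. Afmid shares 1566 exon bases on the same strand with Gm20708, which was at 0, 65.3 and 71.5 FPKM in NC-chow, 9.84, 0 and 64.5 FPKM in IVF-chow and 0, 0 and 15.7 FPKM in FET-chow livers. Where Gm20708 was listed at 0, Afmid ranged from 0.867 to 23.2 FPKM, and otherwise from 0.296 to 4.92 FPKM. How the estimates divided fragments between the pair was not tested, so Afmid is kept in the counts over the list but its own values are uncertain.

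The NC-chow livers differed among themselves. In ppm, 9 of the 44 genes were over 2 times higher in the mean of mice 5 and 6 than in mouse 1, and 3 were over 2 times lower (Aass, Tdo2 and Sdsl). The higher genes were Bckdhb (5.75 times), Afmid, Haao, Hal, Ftcd, Uroc1, Gldc, Cbs and Sds. Of the histidine arm, Uroc1, which hydrates urocanate, was at 24.5, 106 and 127 FPKM in these livers and Hal at 3.03, 13.2 and 16.2 FPKM. Summed periportal markers outside the list, such as Ass1 and Pck1, ranged from 2831 ppm in mouse 1 to 6133 ppm, against 2052 to 3520 ppm over the embryo groups. Part of the list (Hal, Uroc1 and Sds among them) is known to be higher in periportal hepatocytes, and the part of zonation or of the sheet numbers in these differences was not tested. With NC-chow mouse 1 as the only control, the log2 fold change of FET-chow was -1.69 for Kynu, -2.68 for Bhmt, -1.54 for Mccc2 and -2.61 for Oat. The median was then -0.58 over the members, beside -0.15 over all genes.

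Enzymes of the same pathways outside the list mostly had lower means in FET-chow livers too. Of 73 listed, 56 were tested, and 51 had a negative fold change in FET-chow against NC-chow with a median of -0.87, beside 74.4% of all genes and their median of -0.46. Got1, the cytosolic aspartate aminotransferase, was the 1 gene to pass the adjusted threshold. It was at 2.605, 20.8 and 21.8 FPKM in NC-chow, 1.68, 9.52 and 16.4 FPKM in IVF-chow and 0, 0.7101 and 0 FPKM in FET-chow livers. These FET-chow values stand on the shallowest libraries, and no floor for 3 fragments was estimated for genes outside the list. The size of the Got1 fold changes thus rests on values at or near 0. In the main fit it was -3.34 (log2) with an SE of 0.76 and an adjusted p of 0.0320 (limma), beside 0.178% of all genes that were called lower. NC-chow mouse 1 lay far below mice 5 and 6, and the call held in 3 of 13 alternatives. The adjusted p (limma) was 0.0515 after rescaling to coding genes, 0.0529 with median-ratio scaling, 0.517 with no filter and 0.149 with only the 2 groups compared. It was 0.181 without NC-chow mouse 5, 0.205 without mouse 6, and 0.150 and 0.142 without FET-chow mouse 3 or 4 (limma). The log2 fold change of Got1 was -5.51 after rescaling, -3.02 with median-ratio scaling and -2.89 without NC-chow mouse 6. With NC-chow mouse 1 as the only control it was -1.59, and -3.95 with that control after rescaling. Got2, its mitochondrial counterpart in the list, overlapped. Dmgdh and Chdh, which act after and before Bhmt on the route from choline to glycine, were 2 of the 7 genes of the 56 that were lower at an unadjusted p under 0.05, beside 10.1% of all genes. Dmgdh, next to Bhmt2 on chr13:93674433-93752833, was at 19.7, 41.5 and 46.6 FPKM in NC-chow, 7.33, 18.2 and 66.5 FPKM in IVF-chow and 3.21, 5.28 and 4.75 FPKM in FET-chow livers. Chdh was at 2.92, 8.04 and 8.78 FPKM in NC-chow, 1.51, 3.23 and 5.800 FPKM in IVF-chow and 0, 2.61 and 1.22 FPKM in FET-chow livers. In IVF-chow against NC-chow 0 of the 56 were called and 1 (Acad8) was lower at an unadjusted p under 0.05 (beside 2.86% of all genes), and in FET-chow against IVF-chow 0 were called and 3 (Got1, Dmgdh and Nnmt) were lower (limma), beside 2.95% of all genes. Of 14 regulators listed, 12 were tested and 0 were called in FET-chow against NC-chow, with 5 of the 12 lower at an unadjusted p under 0.05 (limma), beside 10.1% of all genes. In IVF-chow against NC-chow 0 regulators were called and 0 were at an unadjusted p under 0.05, and in FET-chow against IVF-chow 0 were called and 4 were lower at that level (limma), beside 2.95% of all genes. Klf15, a factor known to drive amino acid catabolism in the fasted liver, had the smallest p and was at 9.55, 26.2 and 26.6 FPKM in NC-chow, 2.200, 9.69 and 18.5 FPKM in IVF-chow and 0.961, 0.591 and 2.86 FPKM in FET-chow livers, with an adjusted p of 0.0619 (limma) that ranged from 0.0481 to 1 over the alternatives.

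Summed markers of some other liver cells also lay apart between the groups, as a description with no test. In ppm, the 10 stellate cell and fibroblast markers summed to 163 to 235 in NC-chow, 242 to 464 in IVF-chow and 464 to 805 in FET-chow livers, of which 7 to 10 were above 0 in each liver. The most abundant of them was Ecm1, at 71.4 to 161 ppm in NC-chow and 321 to 709 ppm in FET-chow livers, and without it the sums overlapped (71.7 to 153 in NC-chow and 96.3 to 313 in FET-chow livers). The 10 Kupffer cell markers summed to 280 to 309, 206 to 426 and 404 to 1118 ppm, with 7 to 10 above 0, and without Clec4f, their most abundant, FET-chow (351 to 747 ppm) was still above NC-chow (173 to 223 ppm). Among the rest, Cd5l was at 36.8, 7.97 and 5.44 FPKM in FET-chow and 3.76, 3.80 and 4.92 FPKM in NC-chow livers. Of the 7 markers with a mean of at least 1 FPKM, 4 had a negative log2 fold change in FPKM, with a median of -0.14. The 11 pericentral markers outside the list summed to 7532 to 9378, 5661 to 8986 and 4007 to 5300 ppm, and the 6 red blood cell markers to 2426 to 9060, 1686 to 2253 and 3908 to 6292 ppm. Markers of sinusoidal endothelial cells, cholangiocytes and adipocytes overlapped between FET-chow and NC-chow. Summed hepatocyte markers were at 220017 to 248104, 156573 to 266979 and 184330 to 236042 ppm and overlapped. The part of these shifts, and of the lower depth of FET-chow libraries, in the enzyme values was not tested. Depth and conception by frozen-thawed embryos cannot be told apart here.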

How the data were processed

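Liver RNA of 9 mice was sequenced, and groups were taken from the sample labels, sex and diet from the paper. The authors deposited FPKM values for 55335 genes. The submitters' processing notes name FastQC 0.11.5, STAR 2.5.3a, StringTie 1.3.1c and DESeq2 1.16.1. The genome build and annotation are not given in the sources used here, and no scaling between libraries beyond FPKM is stated. Symbols and coordinates came from GENCODE vM21, which held 55154 of the identifiers. Depth was estimated from low FPKM values of genes with 1 transcript. At the depth taken, 37.8% to 46.6% of these values in a library were whole multiples of the value of 1 fragment (8 steps, 2% tolerance), beside a median of 6.79% to 14.5% at other depths, so the depths and the floors for 3 fragments are estimates. The step was tested on simulated data, and floors cover counting error only.

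Genes were tested on log2(FPKM + 1) values with limma 3.58.1 (R 4.3.3), with 1 model for the 3 groups (6 residual degrees of freedom), genes with a mean of at least 1 FPKM, a mean-variance trend, two-sided p-values and Benjamini-Hochberg adjustment over 6755 genes. Fold changes on this scale understate changes of low genes. On simulated FET-chow against NC-chow data, 200 of 6755 genes were changed. The test recovered 0% of these at a log2 change of 2, 55.5% at 3 and 83.0% at 4. The simulated errors were independent between genes and had the same SD in all groups. They thus lack the spread that the genes of a library share, and recovery in the real data may differ. Alternatives were a pseudocount of 0.1, no filter, median-ratio scaling, rescaling to nuclear protein-coding genes (ppm), only the 2 groups compared, a replicate block, leaving out each mouse, and NC-chow mouse 1 alone. The last was also combined with the rescaling, as was leaving out IVF-chow mouse 2, both chosen after seeing the data. Members, gene lists and tests were chosen with earlier results of these data known. Values in every mouse are given for members with an unadjusted p under 0.05, without overlap between groups, listed at 0 or highest in their arm, and fold changes of members with an unadjusted p under 0.05. Of the other lists, at most 5 genes per comparison are named. Promoters are from RefSeq, reading frames from GENCODE vM21 transcripts (the longest frame, aligned with Biopython 1.88).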

Additional observations from a re-analysis of the deposited data

How the results depend on the processing

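In all 3 comparisons 0 of the members passed an adjusted p of 0.05 (limma) under each alternative run. The 6 member fold changes at an unadjusted p under 0.05 came from groups that did not overlap in FPKM. Settings that only left out mice, the filter or a group, or changed the pseudocount, therefore could not turn their sign. In all 78 values from other settings these fold changes kept their sign and stayed short of the adjusted threshold, but their size moved. In FET-chow against NC-chow it ranged from -3.95 to -2.34 for Bhmt, -3.10 to -1.90 for Oat, -3.49 to -1.57 for Kynu, -2.82 to -1.07 for Mccc2 and -2.97 to -0.57 for Gldc, with Kynu, Mccc2 and Gldc largest at a pseudocount of 0.1. For Kynu in FET-chow against IVF-chow it ranged from -2.68 to -1.02. The count of genes called over the whole table was less stable. In FET-chow against NC-chow it was 16, with 26 under median-ratio scaling, 6 with NC-chow mouse 1 as the only control, and 0 with no filter on low values, with only the 2 groups compared, and with rescaling to protein-coding genes against NC-chow mouse 1 alone. In IVF-chow against NC-chow it was 4, with 2 against NC-chow mouse 1 alone and 0 with a pseudocount of 0.1, no filter, median-ratio scaling, rescaling to protein-coding genes (also without IVF-chow mouse 2 or against NC-chow mouse 1 alone), and only the 2 groups compared. In FET-chow against IVF-chow it was 6, with 0 under no filter and with only the 2 groups compared. Leaving out 1 mouse gave 1 (without FET-chow mouse 3) to 83 (without NC-chow mouse 1), 0 to 24 (without NC-chow mouse 1) and 0 (without IVF-chow mouse 4) to 10 (without IVF-chow mouse 2) genes. The cause was not tested. The members' median ranged from -1.18 to -0.56, from -1.16 to 0.0025 and from -0.97 to 0.23 when 1 mouse was left out, and the lone control is assumed to vary like the other groups. With a replicate block for the mouse number, FET-chow against IVF-chow gave 2 genes and 0 members. Same-numbered mice correlated at -0.26 to 0.02 in their deviations from the group means, and mice with different numbers at -0.14 to 0.29. The same-numbered mice were thus not more alike, but so few correlations cannot exclude a shared litter or day. Mice were treated as unpaired in the main fit. No paired analysis was possible with NC-chow, whose numbers differ. Depth was lowest in FET-chow livers, where members listed at 0 may be present below 3 fragments.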
